A study of Mus musculus with 4 samples.

Results

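The genes described here are the cytosolic sulfotransferases Sult1a1, Sult1b1, Sult1c2, Sult1d1, Sult2a8, Sult2b1 and Sult5a1 and the PAPS synthases Papss1 and Papss2. They were taken by symbol, current or older, from the annotation of the array's probes, and all 9 were found among the 16593 genes measured, on 15 of 25697 probes. The liver samples came from male C57BL/6 mice, by their labels, aged 4 weeks and left untreated. TAK1 KO livers carried the genotype Alb-Cre/ TAK1 flox, in which Cre driven by the albumin promoter deletes TAK1, a kinase encoded by Map3k7, in hepatocytes. WT livers carried TAK1 flox without Cre, so Cre and the deletion differ together, and both groups share the floxed gene. Each group had 2 samples on 1 Illumina array each, and the comparison asks what the loss of TAK1 in hepatocytes does to liver gene expression.

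Sulfotransferases are phase II enzymes that move a sulfonate group from a donor, phosphoadenosine phosphosulfate (PAPS), onto phenols, catechols, steroids, bile acids and drugs, which makes them more soluble and easier to excrete. PAPS is made from ATP and inorganic sulfate by the PAPS synthases, and the spent donor, PAP, is broken down by phosphatases. Liver is a main site of this chemistry, and most of its sulfate comes from the oxidation of cysteine.

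The arrays had median intensities of 81.5 to 81.9 units. Probes of olfactory and vomeronasal receptor genes, which liver is not known to use, had a median of 60.4 units and a 95th percentile of 84.1 units, and a reading at or under that level is treated here as not above background. Map3k7 itself read 125.3 and 117.9 units in TAK1 KO and 155.0 and 138.4 units in WT livers on its probe (log2 -0.26 ± 0.10 SE, n = 2 per group), and did not pass (limma, adjusted p = 0.116). Whether this probe lies inside the deleted stretch was not determined, and its reading therefore says nothing about the genotypes. All 4 libraries labelled male read Xist, the RNA of the inactive X chromosome, well above the receptor probes, at 575.0 and 653.0 units in TAK1 KO and 853.4 and 643.3 units in WT. Of the Y chromosome's genes, Eif2s3y and Kdm5d stayed at 53.3 to 55.3 units in TAK1 KO and 56.3 to 69.3 units in WT, under that level, and Uty read 112.4 to 114.8 units in TAK1 KO and 112.4 to 142.2 units in WT. The Xist readings go against the sex on the label in every library, so no result can be given without such libraries. Those of Eif2s3y and Kdm5d go the same way, though a probe at background does not show that its gene is silent. Uty, above 84.1 units on every array, does not go against the label.

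Other cell types also differed between the groups. Of 10 measured macrophage markers 7 rose in TAK1 KO and 0 fell. Their summed intensities were 11209 to 12244 units in TAK1 KO and 5217 to 6029 units in WT. Itgam stayed under 84.1 units on all arrays. Clec4f, at 786.0 to 1084.3 units, and Timd4, at 169.2 to 350.1 units, did not pass. Of 12 stellate cell and matrix markers 10 rose and 0 fell, with sums of 21282 to 25274 units in TAK1 KO and 10211 to 10948 units in WT. Lrat stayed under 84.1 units on all arrays, and Col1a2, at 92.3 to 203.7 units, did not pass. Of 7 bile duct markers 2 rose and 0 fell (sums 621.1 to 661.2 units in TAK1 KO, 536.9 to 537.2 units in WT). Krt19 stayed under 84.1 units on all arrays. The rises lay near background, in Cldn4, at 68.6 to 97.8 units, and Sox9, at 67.3 to 104.4 units. Both genes read under 84.1 units in WT. Only 1 of the 7 markers, Muc1, had 2 or more arrays above 100 units, and it did not pass. A difference in bile duct cells is therefore not shown. Of 10 sinusoidal endothelial markers 0 rose and 2 fell (8027 to 8145 units in TAK1 KO, 7829 to 7848 units in WT). The falls were in Lyve1 and Oit3 (log2 -0.68 and -0.35). Most of these sums came from Clec4g, which did not pass. It read 5631.2 and 5775.4 units in TAK1 KO and 4884.0 and 4973.9 units in WT. Intestinal markers, which would mark another tissue, had 0 of 5 called and sums of 379.8 to 394.1 units in TAK1 KO and 404.0 to 434.9 units in WT. Over all genes 10.5% rose and 7.71% fell. The part of these cells in the results below was not tested. Among 11 hepatocyte markers 1, Apoh, fell, 0 rose, and the sums were 269505 to 269946 units in TAK1 KO and 227484 to 240189 units in WT. The hepatocyte list's median log2 difference was 0.19, and -0.03 with quantile normalization added. Most of the hepatocyte sums came from Trf, Ahsg, Apoa1, Ambp, Hpx and Ttr, at 29575.7 to 51311.8 units, while the Alb probe read 190.5 to 214.4 units. The probe for Fgb, a fibrinogen chain that hepatocytes secrete in quantity, read 55.0 to 62.4 units on the 4 arrays. A probe at background here therefore does not show that its gene is silent.

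Sult2a8, Sult1d1, Papss2 and Sult1c2, 4 of the 9 genes, fell in livers labelled TAK1 KO, and 0 of the 9 rose. Over all genes 18.2% passed the test, 10.5% upward and 7.71% downward. Of the 7791 genes with 2 or more arrays above 100 units, 36.7% passed, 20.8% upward and 15.8% downward. The groups did not overlap, with TAK1 KO lower, in 6 of the 9 genes, against 26.3% of all genes. Sult1a1 and Papss1 did not pass, Sult5a1 lay just outside the threshold, and Sult1b1 and Sult2b1 read near background on every array. The median log2 difference of the 9 genes was -0.52, against -0.0036 over all genes. In whole liver, fewer cells of a type and less RNA per cell cannot be told apart.

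**Figure D1:**
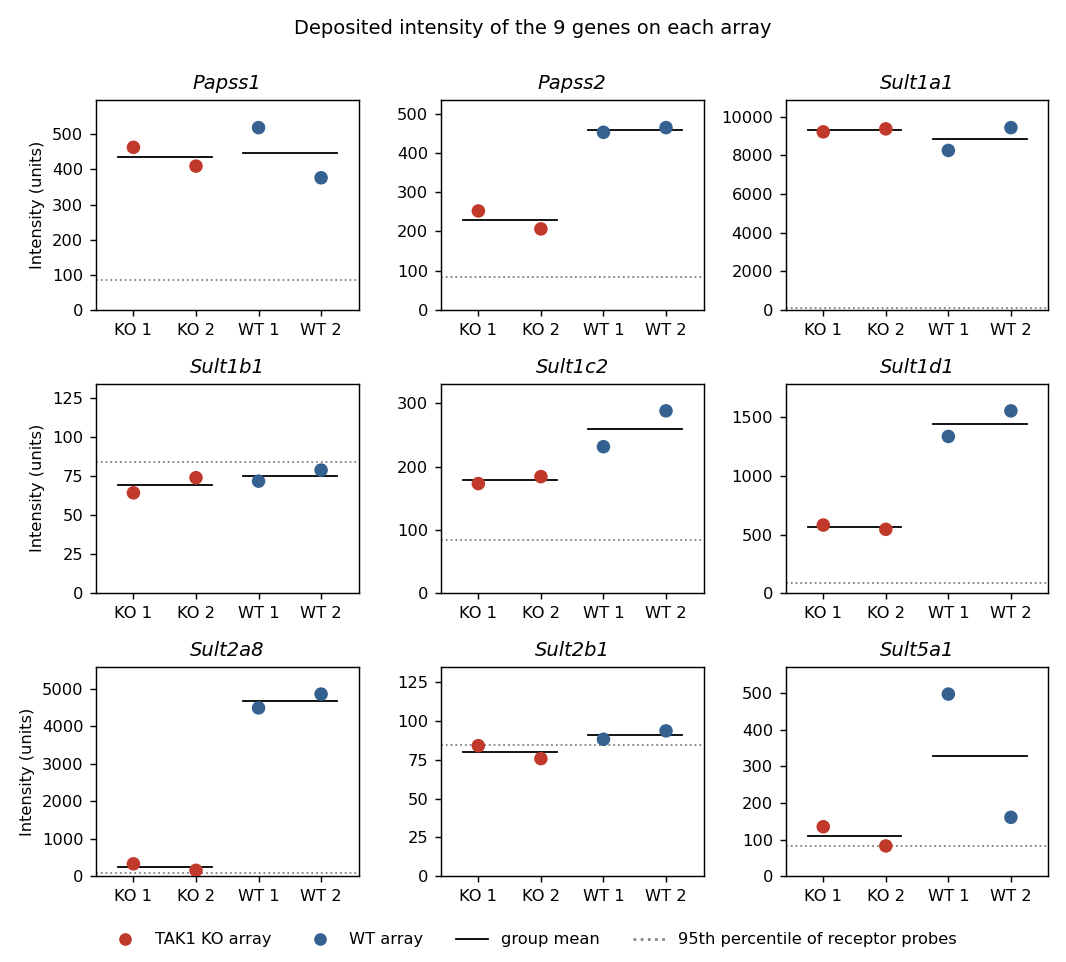
Deposited intensity (vertical axis, units, each panel from 0 on its own scale) of the 9 genes on the 2 TAK1 KO arrays (red) and the 2 WT arrays (blue), brightest probe of each gene, with group means as bars and the 95th percentile of receptor probes (84.1 units) dotted. Sult2a8, Sult1d1, Papss2 and Sult1c2 lie lower on both TAK1 KO arrays than on both WT arrays, Sult1a1 and Papss1 overlap between groups, and Sult1b1 stays under the dotted line.

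Sult2a8, listed on older annotations as 2810007J24Rik, is a mouse liver enzyme of the SULT2 family known to sulfate bile acids. It read 336.0 and 162.9 units in TAK1 KO and 4487.4 and 4855.0 units in WT livers. The groups lie far apart, and the TAK1 KO arrays differ more from each other (SD 0.72 on the log2 scale) than the WT arrays do (0.08). The log2 difference was -4.29 ± 0.26 (SE, n = 2 per group), 19.6-fold lower in TAK1 KO (limma, adjusted p = 1.47e-05). Its value stayed between -4.80 and -3.78 with 1 array left out. Both TAK1 KO readings were above the receptor probes' level. They come from the gene's 1 probe, and near-identical Sult2a genes are open to cross-hybridisation. Whether the remaining signal is Sult2a8 RNA alone was not tested.

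The 3 genes whose log2 values over the 4 arrays, taken from the WT mean, lay nearest to those of Sult2a8 were Rgs16 (Euclidean distance 1.08), Mup6 (1.24) and Depp1 (1.52). Rgs16 regulates G protein signalling and Mup6 is a major urinary protein. Rgs16 read 88.4 and 89.2 units in TAK1 KO, below 100 units, and 1014.9 and 1765.1 units in WT livers, and was at least 12.8-fold lower. That bound sets the WT mean against the lowest readings above the floor. Mup6 had a log2 difference of -3.55, and Depp1 read 122.5 and 231.9 units in TAK1 KO and 3483.3 and 2189.0 units in WT livers. With 4 arrays, nearness here mainly says that a gene fell by a similar amount.

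Sult1d1, which sulfates catecholamines and related phenols in mice, read 581.5 and 544.8 units in TAK1 KO and 1337.0 and 1555.5 units in WT livers on its brightest probe. Every TAK1 KO value was lower than every WT value. The log2 difference was -1.35 ± 0.11 (SE, n = 2 per group), 2.55-fold lower (limma, adjusted p = 5.64e-05). Its other probe read 73.2 and 64.1 units in TAK1 KO and 70.6 and 75.9 units in WT, under the receptor probes' level, with a log2 difference of -0.09. Averaging both probes gave -0.72 for the gene, which still passed (limma, adjusted p = 0.00189).

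Sult1c2, another member of the SULT1 family, read 173.3 and 184.3 units in TAK1 KO and 231.6 and 288.3 units in WT livers on its 1 probe. The groups did not overlap, as was so for 53.7% of all genes in either direction. The log2 difference was -0.52 ± 0.12 (SE, n = 2 per group), 1.44-fold lower (limma, adjusted p = 0.0135). The call was lost without WT replicate 2, the higher of the WT arrays (log2 -0.37, limma adjusted p = 0.115).

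Sult5a1, a member of the family whose substrates are little known, read 135.4 and 83.1 units in TAK1 KO and 497.0 and 161.1 units in WT livers. Both TAK1 KO arrays were lower than both WT arrays, but the WT arrays differed widely between themselves (SD 1.13 on the log2 scale). The log2 difference of -1.38 ± 0.42 (SE, n = 2 per group) did not pass (limma, adjusted p = 0.0535). Its other probe showed the same order of arrays, with 76.2 and 59.4 units in TAK1 KO and 199.8 and 82.9 units in WT, and did not pass either (limma over all probes, adjusted p = 0.101). The value depended on WT replicate 1: it was -0.58 without that array (limma, adjusted p = 0.250) and -2.18 without WT replicate 2 (0.00532). With either TAK1 KO array left out it lay between -1.72 and -1.04. These fits rest on a lone array, assumed to vary like the other group, and the TAK1 KO array that remains at -1.72 read 83.1 units, under the receptor probes' level. With genes below 100 units filtered out it passed (limma, adjusted p = 0.0483). It did not pass with a prior that follows intensity and is robust (0.472), with log2 of the intensity plus 50 (0.171) or averaged over its probes (0.105).

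Sult1a1, the main phenol sulfotransferase of liver, did not pass. It read 9217.5 and 9372.2 units in TAK1 KO and 8257.2 and 9437.0 units in WT livers, and WT replicate 2 lay above both TAK1 KO arrays. The log2 difference was 0.07 ± 0.10 (SE, n = 2 per group), with a 95% interval of -0.15 to 0.30 (limma, adjusted p = 0.743). A fall as large as that of Sult1d1 lies outside this interval.

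Sult1b1, known to sulfate thyroid hormones and small phenols, read 64.4 and 74.1 units in TAK1 KO and 71.9 and 79.0 units in WT livers, under the receptor probes' level on every array. Its other probe read 62.5 and 69.4 units in TAK1 KO and 71.2 and 76.3 units in WT. Sult2b1, which sulfates cholesterol and pregnenolone, chiefly outside the liver, read 83.9 and 75.6 units in TAK1 KO and 88.0 and 93.4 units in WT livers. Its other probes read between 74.7 and 89.1 units in TAK1 KO and between 75.5 and 89.6 units in WT. No fold is given for these genes, which lay below 100 units in both groups (limma, adjusted p = 0.561 for Sult1b1 and 0.289 for Sult2b1).

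**Figure D2:**
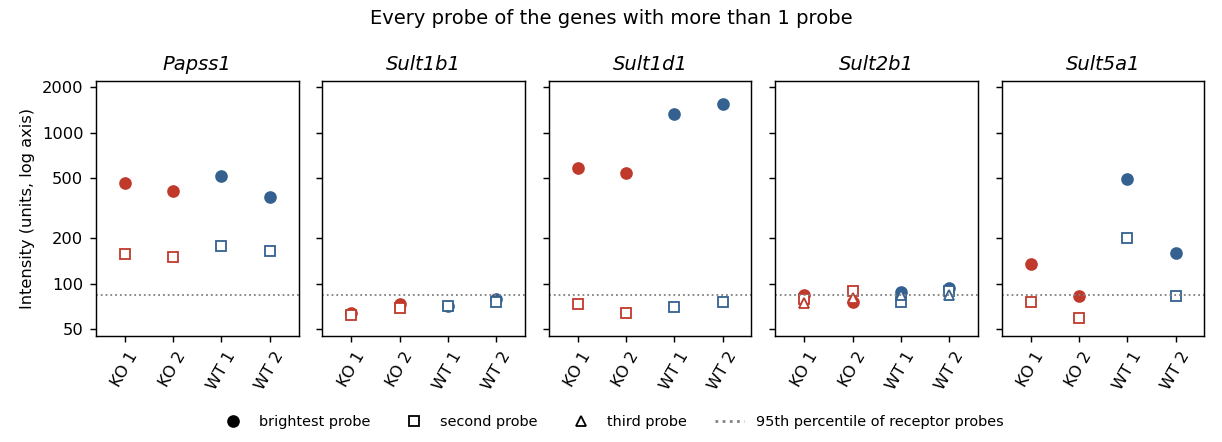
Intensity (units, log axis) of every probe of the genes with more than 1 probe, on the 2 TAK1 KO arrays (red) and the 2 WT arrays (blue), with the brightest probe filled and the others open, and the 95th percentile of receptor probes (84.1 units) dotted. For Sult1d1 the brightest probe is lower in TAK1 KO while its other probe stays between 64.1 and 75.9 units, and for Sult5a1 both probes are highest on WT replicate 1.

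The donor's synthases differed in their values. Papss2, the synthase that is lost in brachymorphic mice, read 252.3 and 206.6 units in TAK1 KO and 452.7 and 464.6 units in WT livers. The WT arrays nearly coincided, and both TAK1 KO arrays were clearly lower. The log2 difference was -0.99 ± 0.11 (SE, n = 2 per group), 1.99-fold lower (limma, adjusted p = 0.000365), with a 95% interval of -1.25 to -0.74. Papss1 read 463.1 and 409.6 units in TAK1 KO and 519.2 and 376.4 units in WT livers, with the TAK1 KO arrays between the WT arrays. Its log2 difference was -0.02 ± 0.15 (SE, n = 2 per group), with a 95% interval of -0.36 to 0.31 (limma, adjusted p = 0.958). The other Papss1 probe read 158.4 and 150.8 units in TAK1 KO and 179.2 and 165.7 units in WT, and did not pass (limma over all probes, adjusted p = 0.382). The difference between the fall of Papss2 and the value of Papss1 was not tested, but their intervals do not overlap.

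**Figure D3:**
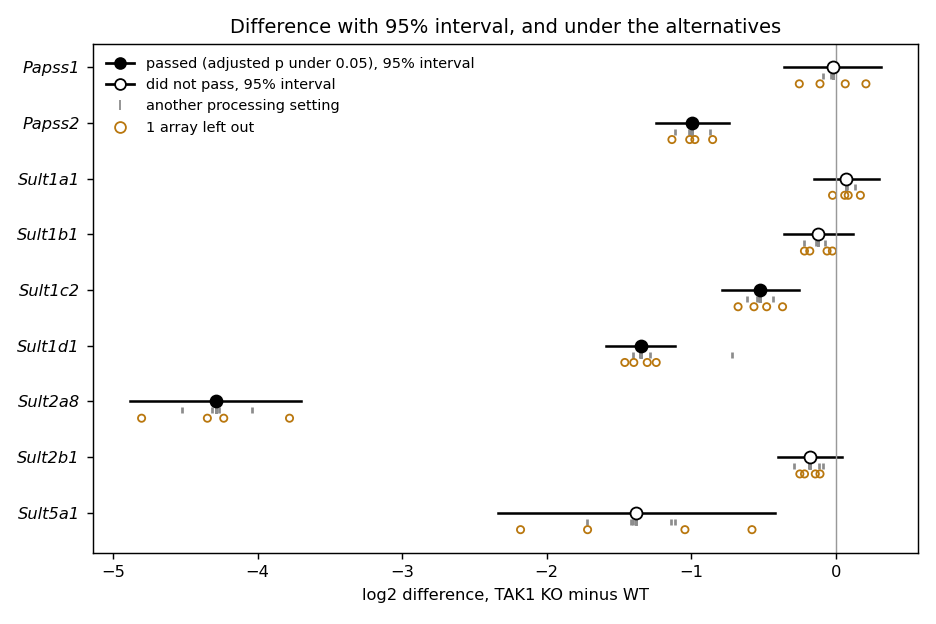
Log2 difference, TAK1 KO minus WT (horizontal axis), of the 9 genes, with 95% intervals (black lines), filled circles for genes that passed and open circles for those that did not. Grey ticks give the value under other processing settings and open brown circles the value with 1 array left out, and Sult5a1 shows the spread from -2.18 to -0.58 that its 2 unequal WT arrays give.

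Promoters of 3 genes that fell, Sult2a8, Sult1d1 and Papss2, are shown because their windows differ in base composition. The windows are the 250 bases before a RefSeq start site (GRCm38.p6), 5′ to 3′ on the gene's strand. Capitals mark matches, on either strand, to the TATA box (TATAAA), the HNF1 core site (GTTAAT), the nuclear receptor core site (AGGTCA) or the GC box (GGGCGG), and no matches overlapped in these windows. For Sult2a8 RefSeq lists 2 starts, with windows at chr7:14446588-14446837 and chr7:14438552-14438801, and for Sult1d1 1 start, at chr5:87569007-87569256, all on the minus strand.
Sult2a8 start 1: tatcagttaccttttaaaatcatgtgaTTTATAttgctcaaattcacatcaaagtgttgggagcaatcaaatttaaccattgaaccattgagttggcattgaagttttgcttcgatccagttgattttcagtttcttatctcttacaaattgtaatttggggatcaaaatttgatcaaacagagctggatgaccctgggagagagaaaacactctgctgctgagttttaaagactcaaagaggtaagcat
Sult2a8 start 2: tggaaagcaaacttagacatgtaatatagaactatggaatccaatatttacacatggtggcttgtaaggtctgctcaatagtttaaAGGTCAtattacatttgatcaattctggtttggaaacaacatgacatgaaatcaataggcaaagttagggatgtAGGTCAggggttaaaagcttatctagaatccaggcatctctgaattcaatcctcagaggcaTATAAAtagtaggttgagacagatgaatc
Sult1d1: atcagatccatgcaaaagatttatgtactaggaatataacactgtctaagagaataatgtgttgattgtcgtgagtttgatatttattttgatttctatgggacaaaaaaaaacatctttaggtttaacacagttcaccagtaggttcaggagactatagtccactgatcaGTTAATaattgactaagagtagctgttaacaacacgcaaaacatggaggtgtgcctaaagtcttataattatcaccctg

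Both genes had windows poor in G and C, at 35.2% and 36.0% for the starts of Sult2a8 and 34.0% for Sult1d1, against a median of 52.4% over 32851 windows of the same length. The Sult2a8 start 2 window held TATAAA 29 bases before the start and AGGTCA at 164 and 90 bases before it. The start 1 window held the TATA box letters on the opposite strand 223 bases before the start. The Sult1d1 window held GTTAAT 79 bases before the start. TATAAA was found in 12.4% of all windows, AGGTCA in 14% and GTTAAT in 6.43%. These matches are letters, not shown sites.

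The first listed windows of the PAPS synthases, on the plus strand, are set side by side because 1 synthase fell and the other did not pass. They lie at chr19:32595465-32595714 for Papss2 and chr3:131564518-131564767 for Papss1.
Papss2 start 1: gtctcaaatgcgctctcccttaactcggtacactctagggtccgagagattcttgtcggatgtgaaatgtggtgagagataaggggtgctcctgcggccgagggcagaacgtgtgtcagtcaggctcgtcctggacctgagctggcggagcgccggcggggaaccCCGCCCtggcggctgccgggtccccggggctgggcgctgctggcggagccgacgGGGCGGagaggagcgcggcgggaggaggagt
Papss1 start 1: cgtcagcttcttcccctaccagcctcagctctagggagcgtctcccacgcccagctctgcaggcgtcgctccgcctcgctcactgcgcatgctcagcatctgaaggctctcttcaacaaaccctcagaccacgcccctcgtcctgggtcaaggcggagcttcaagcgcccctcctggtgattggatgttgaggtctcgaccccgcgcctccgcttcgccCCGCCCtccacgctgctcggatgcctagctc

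Both windows were rich in G and C, at 67.6% for Papss2 and 65.2% for Papss1, with 24 and 20 CpG pairs. Papss2 held the GC box at 85 and 31 bases before the start, and Papss1 at 31 bases. That motif was found in 32.7% of all windows. The other listed window of Papss2 had 43.2% G and C, AGGTCA at 197 bases before the start and no GC box. The only listed window of Sult1c2 had 46.4% G and C and none of the motifs. Over the first listed windows of the 9 genes, TATAAA was found in 1, GTTAAT in 2, AGGTCA in 1 and GGGCGG in 3. Over the first listed windows of 13336 measured genes the shares were 11.7%, 5.77%, 12% and 46.4%. The AP-1 site (TGANTCA), the STAT5 core site (TTCNNNGAA), the HNF4 core site (CAAAGTCCA) and an NF-kB site were found in 0 of the 9, against 6.31%, 6.76%, 0.382% and 1.3% of these genes.

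Genes of sulfur amino acid use were lower as well. Of 10 measured enzymes on the routes of sulfur from methionine and cysteine, 7 fell in TAK1 KO liver and 0 rose. These routes lead toward sulfate, except that Csad, which fell, leads cysteine sulfinate to taurine. The median log2 difference was -0.59, and all 10 values were below 0, as were 8441 of all 16593 genes. All 10 had 2 or more arrays above 100 units, and of all such genes 15.8% fell. Suox, the sulfite oxidase that makes sulfate in mitochondria, read 204.9 and 220.5 units in TAK1 KO and 545.9 and 585.6 units in WT livers. Cdo1, the dioxygenase that starts cysteine oxidation, read 5383.2 and 5209.0 units in TAK1 KO and 11322.2 and 13439.3 units in WT. Got1, the cytosolic transaminase that can act on cysteine sulfinate, read 471.0 and 437.8 units in TAK1 KO and 1056.1 and 1106.6 units in WT. In each of these genes the groups lay well apart.

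The log2 differences were -1.39 ± 0.10 for Suox, -1.24 ± 0.09 for Got1 and -1.22 ± 0.11 for Cdo1 (SE, n = 2 per group; limma, adjusted p = 2.84e-05, 4.49e-05 and 0.000102). The transsulfuration enzymes that make cysteine fell too, Cth by 0.87 and Cbs by 0.73 on the log2 scale (limma, adjusted p = 0.00374 and 0.000922). The other falls were in Mpst, a sulfurtransferase, and in Csad, which leads cysteine sulfinate to taurine (log2 -0.44 and -0.39; limma, adjusted p = 0.0291 and 0.0188). Averaged over its probes, Cth had a log2 difference of -0.44. Mpst lost its call without either WT array or TAK1 KO replicate 1, and Csad without either WT array or TAK1 KO replicate 2. Tst, Ethe1 and Sqor, of mitochondrial sulfide oxidation, did not pass, with log2 differences of -0.37, -0.28 and -0.13. The count of falls was 5 without WT replicate 2. Markers of macrophages (7 of 10) and of stellate cells and matrix (10 of 12) rose in the same livers.

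**Figure D4:**
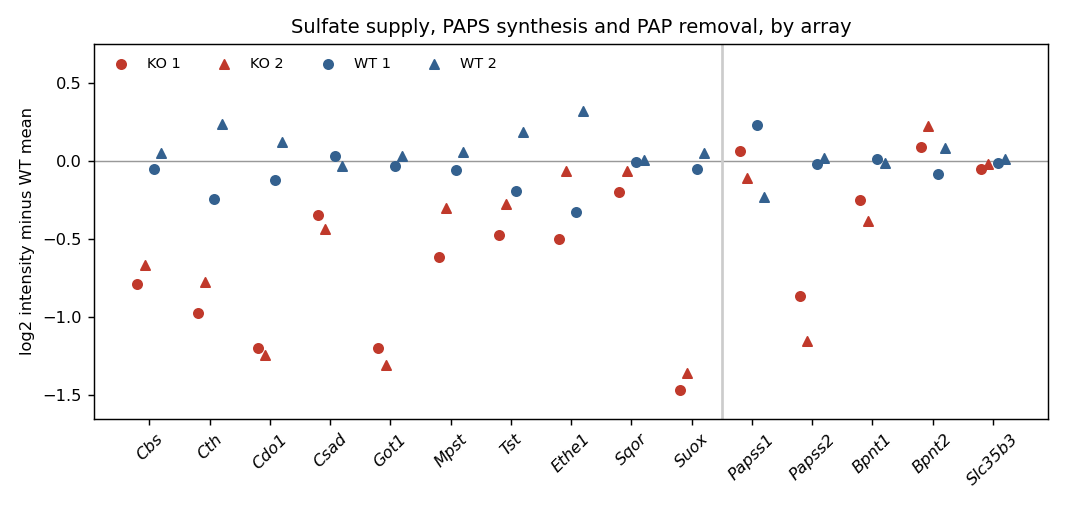
Log2 deposited intensity minus the gene's WT mean (vertical axis) on the 2 TAK1 KO arrays (red) and the 2 WT arrays (blue), for 10 enzymes of cysteine synthesis and oxidation (left of the line) and for PAPS synthesis, PAP removal and PAPS transport (right). Suox, Got1 and Cdo1 lie lowest on both TAK1 KO arrays, while the TAK1 KO arrays lie between the WT arrays for Papss1 and a little above them for Bpnt2.

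Of 7 measured carriers of sulfate and PAPS and phosphatases of PAP, 1 fell and 0 rose, with a median log2 difference of -0.13. Over all genes 7.71% fell. The fall was in Slc13a4, a sodium-sulfate cotransporter, whose readings of 65.1 and 62.0 units in TAK1 KO and 98.6 and 90.2 units in WT all lay below 100 units. Slc26a1, the sulfate exchanger of the hepatocyte membrane, read 190.7 and 167.3 units in TAK1 KO and 183.6 and 214.4 units in WT, and the groups overlapped.

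Bpnt1, the cytosolic phosphatase that removes PAP, read 319.6 and 291.6 units in TAK1 KO and 383.2 and 377.3 units in WT livers on the brightest of its 4 probes. The log2 difference of -0.31 ± 0.09 (SE, n = 2 per group) lay just outside the threshold (limma, adjusted p = 0.0510). Its probes did not give 1 call: over all probes, another passed (log2 -0.36, limma adjusted p = 0.0259) and the dimmest, under 84.1 units on all arrays, had a log2 difference of -0.08. Bpnt2, the Golgi PAP phosphatase, and Slc35b3, which carries PAPS into the Golgi, had log2 differences of 0.15 and -0.03 and did not pass (limma, adjusted p = 0.411 and 0.883).

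The other cytosolic sulfotransferases measured were Sult1c1, Sult1e1, Sult2a6, Sult3a1 and Sult4a1, and 0 of these 5 passed in either direction. Sult1e1, the oestrogen sulfotransferase, read 60.9 and 74.6 units in TAK1 KO and 62.0 and 100.8 units in WT livers. Sult3a1, which is female-biased in mouse liver, read 62.6 and 53.1 units in TAK1 KO and 68.3 and 64.9 units in WT. All readings of the 5 genes but 1 lay under 84.1 units, the exception being Sult1e1 on WT replicate 2.

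Sulfotransferases of the Golgi draw on the same donor to sulfate glycans, lipids and tyrosines. Among 30 measured genes 2 rose and 1 fell, with a median log2 difference of 0.03. Over all genes 10.5% rose and 7.71% fell. Gal3st1, which makes sulfatide, read 209.6 and 184.4 units in TAK1 KO and 122.1 and 102.0 units in WT livers (log2 0.79 ± 0.12 SE, n = 2 per group; limma, adjusted p = 0.00148). Hs3st1, a heparan sulfate enzyme, read 102.9 and 91.6 units in TAK1 KO and 70.7 and 75.6 units in WT, under the receptor probes' level, so its rise is given with no fold (limma, adjusted p = 0.0248). Tpst1, a tyrosine sulfotransferase, fell by 0.35 on the log2 scale (limma, adjusted p = 0.0466). Neither call was stable: Hs3st1 was lost without either WT array or TAK1 KO replicate 1, and Tpst1 without either WT array or TAK1 KO replicate 2. Of the 30 genes 19 read below 100 units on all 4 arrays.

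Sulfatases, which remove sulfate again, had 3 rises and 1 fall among 12 measured genes and activators, with a median log2 difference of 0.05. All these calls were among the 9 genes with 2 or more arrays above 100 units. Of all such genes 20.8% rose and 15.8% fell. Arsa, the lysosomal enzyme that breaks down sulfatide, read 837.5 and 866.8 units in TAK1 KO and 542.0 and 507.2 units in WT livers (log2 0.70 ± 0.09 SE, n = 2 per group; limma, adjusted p = 0.000907). Arsb and Sgsh, which degrade dermatan and heparan sulfate, rose by 0.46 and 0.44 on the log2 scale, and Galns fell by 0.31 (limma, adjusted p = 0.0444, 0.0395 and 0.0498). Averaged over its probes, Arsb had a log2 difference of 0.23 and did not pass. The Arsb call was also lost without WT replicate 1 and without TAK1 KO replicate 2, the Sgsh call without WT replicate 2, and the Galns call without either WT array or TAK1 KO replicate 1. Macrophage markers summed to 11209 to 12244 units in TAK1 KO and 5217 to 6029 units in WT, and their part in these values was not tested.

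**Figure D5:**
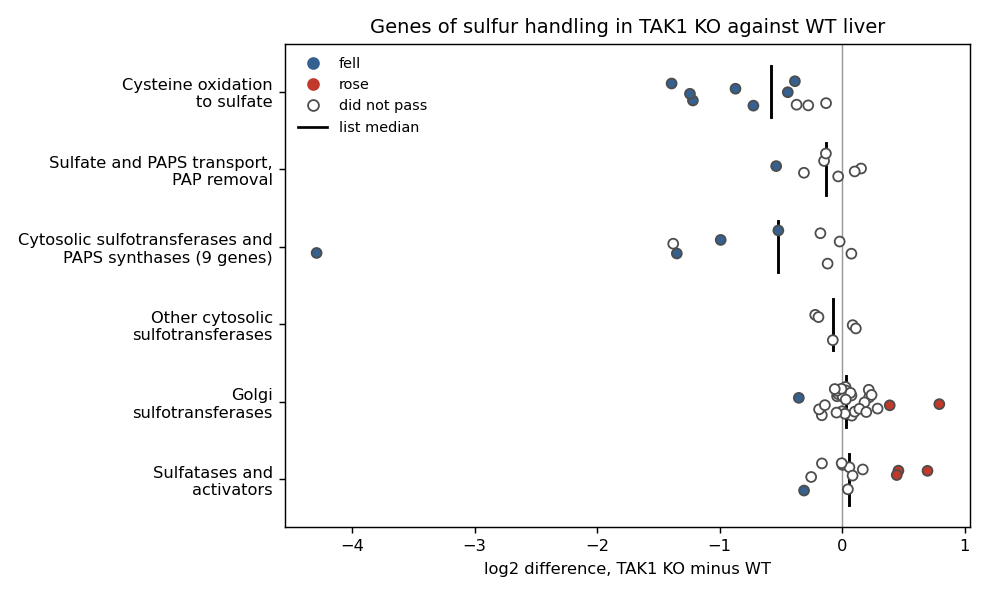
Log2 difference, TAK1 KO minus WT (horizontal axis), of each measured gene in 6 lists of sulfur handling, 1 point a gene, blue where it fell, red where it rose and open where it did not pass, with list medians as black bars. The falls lie mostly among the enzymes of cysteine synthesis and oxidation (7 of 10, with Csad of the taurine branch) and the 9 sulfotransferases and PAPS synthases (4 of 9). Golgi sulfotransferases had 2 rises among 30 genes and sulfatases 3 among 12. Over all genes 10.5% rose and 7.71% fell.

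Of 14 measured receptors and transcription factors known to regulate sulfotransferase genes, 4 were called lower in TAK1 KO and 0 higher. The median log2 difference was -0.13. The falls were among the 11 genes with 2 or more arrays above 100 units, and of all such genes 15.8% fell. Ghr, the growth hormone receptor, read 3343.5 and 2303.6 units in TAK1 KO and 7707.9 and 6551.9 units in WT livers (log2 -1.36 ± 0.17 SE, n = 2 per group; limma, adjusted p = 0.000552). Nr1i3, the xenobiotic receptor CAR, read 433.0 and 336.8 units in TAK1 KO and 621.8 and 757.1 units in WT (log2 -0.84 ± 0.14 SE; limma, adjusted p = 0.00296). Nr1h4, the bile acid receptor FXR, fell by 0.61 and Esr1, the oestrogen receptor, by 0.32 on the log2 scale (limma, adjusted p = 0.0232 and 0.0461), and the count of falls was 2 without either WT array.

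Nr1i2, the xenobiotic receptor PXR, and Hnf4a, a factor of hepatocyte identity, had log2 differences of 0.20 and 0.0069 and did not pass (limma, adjusted p = 0.273 and 0.983). As several sulfotransferases are known to differ between the sexes in mouse liver, genes with such a bias are given beside them. Of 8 female-biased genes 4 fell in TAK1 KO and 0 rose, and of 10 male-biased genes 5 fell and 1 rose, Cyp2d9. These genes were picked after their values were seen, so the counts are a description and cannot be weighed against the shares over all genes. The 4 female-biased genes not called lay below 100 units on all arrays, as did 3 male-biased genes. Over all genes 7.71% fell and 10.5% rose. Among genes with 2 or more arrays above 100 units, 15.8% fell and 20.8% rose. The female-biased gene with the largest difference, Cyp2b13, read 101.5 and 102.9 units in TAK1 KO and 3410.9 and 5332.2 units in WT livers. The male-biased gene that fell most, Cyp7b1, read 187.8 and 177.3 units in TAK1 KO and 657.3 and 609.9 units in WT.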

How the data were processed

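Per the labels' protocols, liver RNA was isolated with Trizol and RNeasy, treated with DNase and amplified to biotin-labelled cRNA. Each of the 4 samples went onto 1 Illumina array. The authors deposited linear intensity values per probe, already close in distribution between arrays (95th percentiles of 1704 to 1714 units). Their normalization method: not given in the sources used here. In a further table, of unnormalized values, the 4 columns carry no sample's name and were left out. Titles gave the groups and replicate numbers. They do not say whether samples came from separate animals, so p-values measure only the spread between these samples.

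Background was corrected with limma's normexp (offset 50) and the result was taken to log2, so changes of dim genes are understated. Of 25697 probes 23978 had 1 gene, 0 had several and 1719 had none. Current symbols came from RefSeq (GRCm38.p6) through the gene identifiers, 11 of which were not found. The brightest probe stood for each gene, and genes were fitted in limma 3.58.1 (R 4.3.3) with lmFit and eBayes (two-sided tests, 2 residual and 6.85 prior degrees of freedom), with Benjamini-Hochberg adjustment over 16593 genes and a threshold of 0.05. Other probes come from 1 fit over all 25697. The procedure was tested on simulated data. The floor of 100 units was set with earlier values known. Promoter windows come from RefSeq (GRCm38.p6), which matched 9 of 9 genes; the array's probe positions were not used, so no gene coordinates are given. Near-identical sulfotransferases, such as the Sult2a genes, are open to cross-hybridisation.

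The genes and lists were chosen with earlier results of these data known. Named genes are all 9, up to 4 called in each direction per sulfur or regulator list by size, others of these lists for their role, the 3 genes nearest to Sult2a8, and the largest difference of each sex-biased list. The sex-biased genes were picked after their values were seen. The 14 alternatives changed how background was corrected, how arrays were normalized, which probes were used, the dim-gene filters, variance prior, array weights, the replicate number as a block and each array left out.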

Additional observations from a re-analysis of the deposited data

How the results depend on the processing

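Of 123 values of the 9 genes under 14 alternatives, 116 kept their direction and side of the threshold or were not called, 1 lost its call, 6 gained one and 0 reversed a call. The lost call was Sult1c2 without WT replicate 2, and the 6 gained were all Sult5a1, 3 of them with 1 array left out. Such fits leave a group with a lone array, which is assumed to vary like the other group. The falls among the 9 genes numbered 4 to 5 and the rises 0 with 1 array left out. Over all genes the rises numbered 1035 to 1875 and the falls 759 to 1429 with 1 array left out. In the sulfur lists together 5 genes rose and 10 fell. The rises numbered 3 to 6 and the falls 6 to 10 with 1 array left out, and the rises were 2 with log2 of the intensity plus 50 and 3 with quantile normalization added or a normexp offset of 16, which also gave 6 falls. The cause was not tested.

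The replicate number was checked for pairing. Same-numbered arrays' deviations from their group means correlated at 0.0453 over all genes and 0.0246 over genes above 100 units. No shift shared by most genes was seen, but a correlation over many genes cannot exclude pairing that moves some of them. The titles do not say what the replicate number stands for. With the replicate block 1309 genes fell and 1758 rose, 5 of the 9 genes fell and 0 rose, and the fifth was Sult5a1 (limma, adjusted p = 0.0019). With a prior that follows intensity and is robust, Sult2a8 passed at 0.00878 and Sult5a1 did not, at 0.472. The number of arrays limits the precision. Sult1b1 and Sult2b1, with readings near 84.1 units, did not pass, and a difference at that level would be understated. Calls near the threshold (Sult1c2, Sult5a1, Tpst1, Galns) move with single arrays.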

Other observations

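In the GRCm38.p6 RefSeq table Sult1d1 lies between Sult1b1 and Sult1e1 among protein-coding genes, and Sult1d1 alone of the 3 read above 100 units on both arrays of a group. Neither Sult1b1 nor Sult1e1, both near background, passed (limma, adjusted p = 0.561 and 0.557). Sult2a8 lies beside Sult2a6, which read 58.7 and 52.9 units in TAK1 KO and 57.1 and 60.9 units in WT livers, at the receptor probes' level. Sult1c2 lies beside Sult1c1, which read 58.9 and 57.8 units in TAK1 KO and 58.2 and 51.4 units in WT.

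Next to Papss2, Minpp1, an inositol phosphatase, read 366.1 and 305.5 units in TAK1 KO and 331.5 and 265.6 units in WT livers, with overlapping groups (log2 0.17, limma adjusted p = 0.50). Atad1, on its other side, had a log2 difference of -0.33 that did not pass (limma, adjusted p = 0.0521).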
